A study of Mus musculus with 2 samples.

Results

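Of the 54943 CTCF sites of embryonic mouse lung on chromosomes 1 to 19 and X, 540 lay at a divergent pair of protein-coding promoters. A member was a peak summit with the transcription start site (TSS) of a plus-strand gene and that of a minus-strand gene each within 1 kb, with 1 TSS per gene from GENCODE release M21 on mm10. In 334 of the 540, called head-to-head, the minus-strand TSS had the lower coordinate, so that the genes run away from each other across a gap. In the other 206, called overlapping, the plus-strand TSS had the lower coordinate, so that the annotated 5′ ends of the genes overlap. Only position chose the members, so their signal and sequence played no part in the choice. They were set against 5533 sites with TSSs of 1 strand only within 1 kb, called single-promoter sites.

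The samples were 2 ChIP-seq replicates of lungs of B6NCrl mouse embryos at day 14.5, of mixed sex, pulverised and pooled from several dissections, precipitated with an antibody to CTCF. Both replicates carry 1 biosample and 1 donor record and form 1 group, with no second condition, so any difference between the replicates may be technical. The peak lists give a signal per peak and no read counts, so depth is unknown, and binding sites cannot check the tissue label. Intervals are 95% intervals that cover counting error only, and sites of 1 gene pair are not independent of each other.

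CTCF is a zinc finger protein that binds a long, directional DNA motif and, together with cohesin, holds the bases of chromatin loops. Divergent promoters are pairs of genes read in opposite directions from a short shared stretch of DNA. They are common in mammals, mostly lie in CpG islands, and serve many housekeeping and DNA repair genes. CTCF also occupies many promoters, which lie in open chromatin.

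The 540 members stood at 475 distinct gene pairs with 948 genes, 294 pairs head-to-head and 181 overlapping. Of these pairs 414 had 1 site, 57 had 2 and 4 had 3. A summit had more than 2 protein-coding TSSs within 1 kb at 16 members. The TSSs of head-to-head members were a median of 143.5 bp apart (range 9 to 1365). Members were found on all 20 chromosomes. All 15 of the strongest head-to-head members had a peak in both replicate lists.

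The motif matches of the 8 strongest head-to-head members with a match show how the same letters recur at different promoters. They come from GRCm38, the assembly that mm10 names, and are written 5′ to 3′ along the strand of the motif, with capitals at the bases equal to the most frequent base of the learned matrix, TGTGGCCACCAGGGGGCGCC.
Wrap53/Trp53, chr11:69579485-69579504, plus strand, in an intron: ccTGGCCtgCAGaGGGCGCa
Caskin2/Tsen54, chr11:115814099-115814118, minus strand, in the gap: gcTcaCCACtAGGtGGCaCC
Dtl/Ints7, chr1:191575991-191576010, minus strand, in an intron: TGccGCCACtAGGtGGCGCC
Tctn3/Entpd1, chr19:40612409-40612428, plus strand, in a UTR: TcccGCCgCtAGatGGCagC
Ddias/Prcp, chr7:92874516-92874535, plus strand, in an exon: gcTGGaCAggAGGGGGCGCt
Nae1/Car7, chr8:104534656-104534675, plus strand, in the gap: cGcaGCCAgtAGGGGGCGCC
Mrps12/Sars2, chr7:28742238-28742257, plus strand, in a coding exon: gagctCCgCaAGGGGGaGCt
Lrrc75a/Mmgt2, chr11:62648759-62648778, minus strand, in a UTR: aGTGtCCggCAGGGGGCGCt
These matches shared 11 to 16 of their 20 bases with the most frequent bases, with the fewest at Tctn3/Entpd1 and Mrps12/Sars2 and the most at Dtl/Ints7.

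In 4 head-to-head gaps of at most 300 bases the whole motif match of a site lay between the genes, and those gaps are given in full on the plus strand of the genome, with the match in capitals.
Nae1/Car7, chr8:104534638-104534688: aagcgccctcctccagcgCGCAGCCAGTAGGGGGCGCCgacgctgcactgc
Trove2/Uchl5, chr1:143777069-143777271: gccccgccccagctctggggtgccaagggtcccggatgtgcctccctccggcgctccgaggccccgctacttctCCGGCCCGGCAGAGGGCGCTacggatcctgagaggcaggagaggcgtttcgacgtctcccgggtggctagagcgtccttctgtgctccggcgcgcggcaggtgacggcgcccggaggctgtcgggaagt
Nop14/Grk4, chr5:34660149-34660378: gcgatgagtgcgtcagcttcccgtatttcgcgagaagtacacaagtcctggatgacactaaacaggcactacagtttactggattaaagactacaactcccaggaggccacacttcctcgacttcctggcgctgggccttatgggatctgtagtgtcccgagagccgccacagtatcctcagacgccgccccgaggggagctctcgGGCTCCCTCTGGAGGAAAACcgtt
Vezt/Fgd6, chr10:94035818-94036000: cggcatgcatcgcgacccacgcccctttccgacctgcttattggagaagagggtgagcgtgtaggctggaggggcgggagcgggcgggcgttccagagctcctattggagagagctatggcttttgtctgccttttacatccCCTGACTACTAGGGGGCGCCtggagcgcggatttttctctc
In the Nae1/Car7 gap, 51 bases long, the match left 18 bases to the Nae1 side and 13 to the Car7 side. In the Nop14/Grk4 gap the match lay on the minus strand and ended 4 bases before the Grk4 TSS, with 206 bases on the side of Nop14.

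The strongest head-to-head member lay at Wrap53 and Trp53, which encode a telomerase-associated protein and the tumour suppressor p53. Its deposited signal was 449.2 in the optimal list, 237.9 in replicate 1 and 210.9 in replicate 2, and its summit lay inside Wrap53, 786 bp from the Wrap53 TSS. The signal has no unit of its own and was not scaled between lists. Caskin2/Tsen54, with a gene for a subunit of the tRNA splicing endonuclease, followed with 417.5 (replicates 226.3 and 192.6). Dtl/Ints7, a ubiquitin ligase adaptor and a subunit of the Integrator complex, had 406.1 (replicates 213.4 and 189.4). In each of these 3 the replicate 1 value was the higher, as it was in 384 of the 493 members matched in both lists. This was not particular to members. The median ratio of replicate 1 to replicate 2 signal was 1.30 at members, 1.26 at single-promoter sites and 1.23 over all sites.

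Tctn3/Entpd1, a cilium gene and the ectonucleotidase CD39, had a signal of 375.9 (replicates 212.9 and 161.3). Ddias/Prcp had 356.3 (replicates 207.1 and 148.2). Nae1/Car7, a subunit of the NEDD8-activating enzyme and a carbonic anhydrase, had 307.4 (replicates 166.3 and 140.9), with the summit in the gap 16 bp from the Car7 TSS. Exd1/Chp1 came next, and it was the first in this order whose best score missed the motif threshold, at 9.57 against 10.6. Its signal was 302.8 (replicates 175.8 and 131.2). Mrps12/Sars2, a mitochondrial ribosomal protein and the mitochondrial seryl-tRNA synthetase, had 272.2 (replicates 150.3 and 121.4).

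Among the rest of the 15 strongest, signals ran down to 248.5 at Gpr108/Trip10. Gm10644/Asf1b, the second of these a histone chaperone gene, had 270.6 (replicates 158.5 and 110.1) with a best motif score of -3.98, well under the threshold, and its summit lay in the gap. Abca17/Abca3 had 264.6 (replicates 152.1 and 113.4), also in the gap and without a match. Abca3 encodes the phospholipid transporter of surfactant-storing lamellar bodies in alveolar type II cells. The others of the 15 were Lrrc75a/Mmgt2 with 265.5, Polr3a/Rps24 with 264.9, Trove2/Uchl5 with 257.0 and Olfml3/Gm10964 with 254.0. Of the 15 strongest, 12 had a motif match, 7 had the summit in the gap, 6 in the plus-strand gene and 2 in the minus-strand gene.

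The 5 weakest head-to-head members had no motif match and no summit in a gap. Npc2/Isca2 had a signal of 5.11, Chpf/Tmem198 5.45, Vps26b/Ncapd3 5.78, Dnajb4/Fubp1 5.81 and Cptp/Ints11 6.04. In 4 of the 5 the next summit was within 250 bp, and in 2 of the 5 neither replicate list had a peak within 100 bp. Over all members, 20 had no peak within 100 bp in replicate 1, 33 none in replicate 2, and 6 none in either. Across the whole range the strongest member of all was overlapping, at Rab2b/Tox4, named here after its value was seen, with 493.5 (replicates 261.1 and 232.7).

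**Figure D1:**
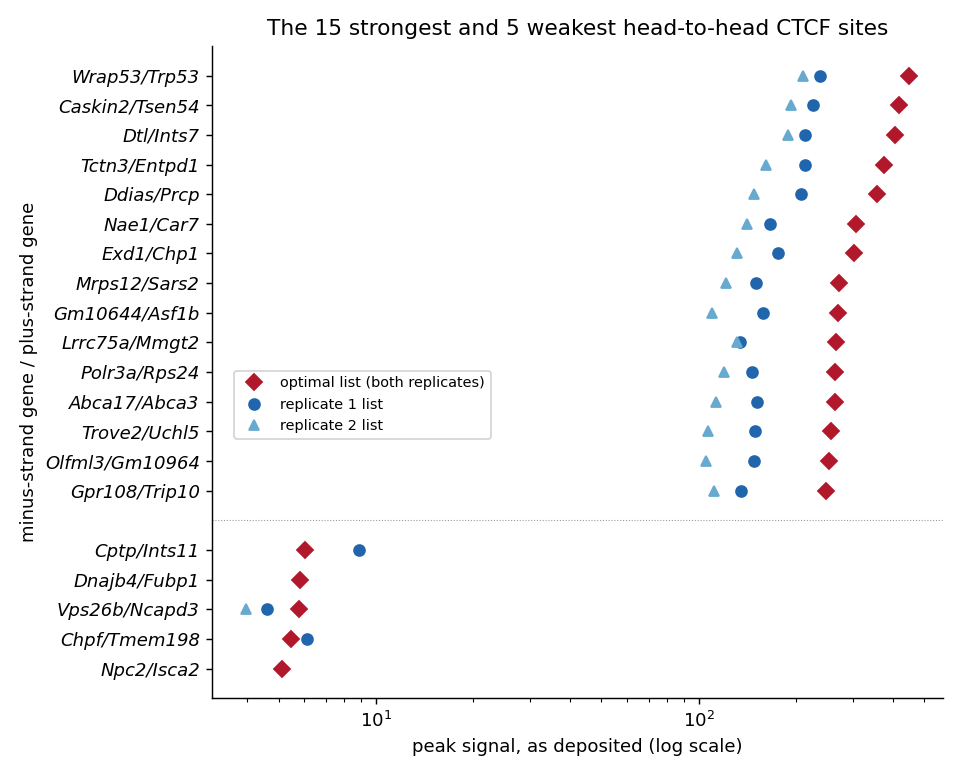
Peak signal on a log axis for the 15 strongest and, under the dotted line, the 5 weakest head-to-head members, 1 row per gene pair, with diamonds for the optimal list, circles for replicate 1 and triangles for replicate 2. The optimal values of the strongest run from 449.2 to 248.5, and a missing circle or triangle means no peak within 100 bp in that list.

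Divergent sites had a lower median signal than single-promoter sites in both replicates, and the median was lowest at the head-to-head ones. The median optimal signal was 37.1 (31.3 to 43.5) at head-to-head, 45.8 (38.3 to 63.6) at overlapping and 50.9 (48.8 to 53.0) at single-promoter sites, beside 62.3 over all sites. For divergent sites as a whole it was 40.7 (35.9 to 45.6). In replicate 1 the median signal was 24.3 at divergent and 30.6 at single-promoter sites, and in replicate 2 it was 19.2 at divergent and 24.4 at single-promoter sites. The ranges overlapped almost entirely, with divergent sites between 5.11 and 493.5.

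On ranks within a list, where 50 is the middle of all sites, the median percentile was 35.8 at divergent and 43.7 at single-promoter sites, a difference of -7.89 (-12.7 to -3.50). The difference was -7.76 (-12.6 to -3.67) in replicate 1 and -7.82 (-11.8 to -3.40) in replicate 2. For head-to-head sites it was -11.4 (-17.8 to -5.36). For overlapping sites it was -3.61 (-10.3 to 7.03), an interval that includes 0. Between head-to-head and overlapping sites it was -7.76 (-20.1 to 1.05), which also includes 0. The percentile of a member differed by a median of 6.77 between the replicate lists and that of a single-promoter site by 5.58.

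Divergent sites of both orders combined were less frequent among the strongest sites and more frequent among the weakest. Of divergent sites 24 of 540, or 4.44% (3.0 to 6.53), and of single-promoter sites 8.51% (7.81 to 9.28) ranked in the strongest 10% of all sites. In the weakest 10% were 18.3% (15.3 to 21.8) of divergent and 13.9% (13.0 to 14.8) of single-promoter sites. The stricter conservative list held 416 of the 540 divergent sites, or 77.0% (73.3 to 80.4), and 83.0% (82.0 to 83.9) of single-promoter sites, beside 87.5% of all sites. Head-to-head sites differed from single-promoter sites by -4.62 points (-6.40 to -1.88) in the strongest 10%, by 6.80 points (2.69 to 11.5) in the weakest 10% and by -8.12 points (-13.1 to -3.66) in the conservative list. For overlapping sites the differences were -3.17 points (-5.63 to 0.857), 0.701 points (-3.57 to 6.24) and -2.39 points (-8.41 to 2.53), and all 3 intervals include 0.

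**Figure D2:**
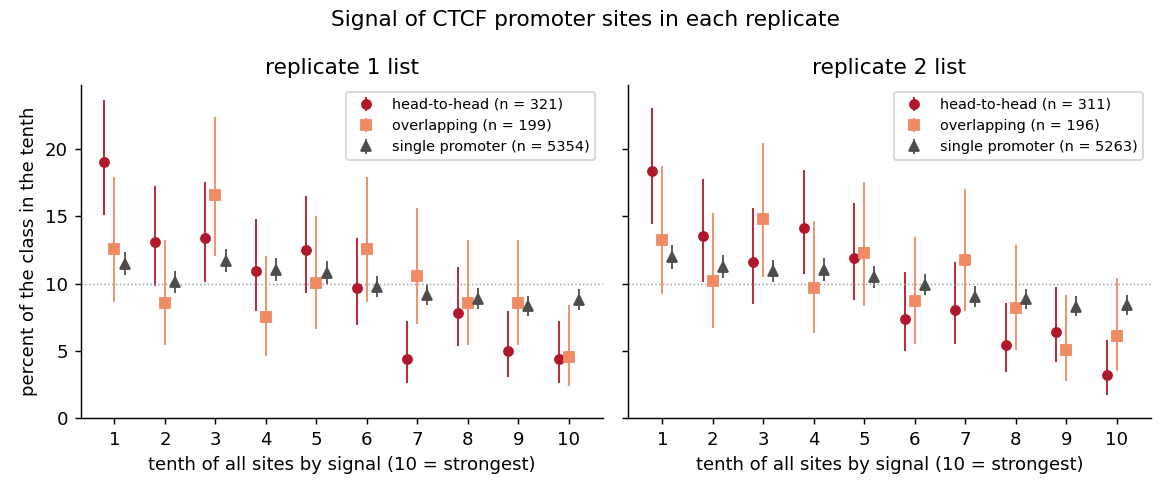
Percent of head-to-head, overlapping and single-promoter sites in each 10% of all sites ranked by signal, in the replicate 1 list (left) and the replicate 2 list (right), with 95% Wilson intervals and a dotted line at 10%. In both lists the head-to-head points fall from left to right and end at 4.36% in replicate 1 and 3.22% in replicate 2, under the single-promoter points at 8.80% and 8.38%.

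Fewer divergent sites carried the CTCF motif. A match was a score that 1% of windows 1 kb from the sites reached, searched over 50 bp on each side of the summit on both strands. Of the 540 divergent sites 105 had one, or 19.4% (16.3 to 23.0), beside 60.3% of all sites. The share was 31.7% (30.5 to 33.0) at single-promoter sites, a difference of -12.3 points (-15.6 to -8.52). With the 54953 strongest peaks of replicate 1 alone the difference was -11.7 points, and with those of replicate 2 alone -11.2 points. As many peaks were taken as the optimal list held. The share was 15.6% (12.1 to 19.8) at head-to-head and 25.7% (20.2 to 32.1) at overlapping sites, a difference of -10.2 points (-17.4 to -3.20) between the 2 orders. Against single-promoter sites the difference was -16.1 points (-19.9 to -11.7) for head-to-head sites and -5.99 points (-11.6 to 0.499) for overlapping sites, where the interval includes 0. By position, it was -11.0 points (-16.9 to -4.39) for divergent sites upstream of the nearer TSS, -5.28 points (-10.4 to 0.907) within 250 bp downstream of it and -11.7 points (-17.2 to -4.47) farther downstream. The upstream sites were not matched for distance. Head-to-head summits upstream of the nearer TSS all lay in the gap, while those of single promoters could lie up to 1 kb away. The same score was reached at 6 of 503 midpoints of head-to-head pairs without a site, or 1.19% (0.548 to 2.58), and 1 kb to the right of the divergent sites at 0.370%. The divergent share was thus above that of promoters without a site and below that of single-promoter sites. The contrast between the 2 orders depended on the threshold. With a looser score, reached by 5% of the windows 1 kb away, the share was 48.5% at head-to-head, 49.5% at overlapping and 59.1% at single-promoter sites. At that score the difference from single-promoter sites was -10.6 points (-16.1 to -5.13) for head-to-head and -9.62 points (-16.5 to -2.72) for overlapping sites.

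At equal signal the motif share of both orders combined was lower too, except among the strongest sites. In the weakest 30% of all sites the motif share was 7.88% (5.11 to 12.0) at divergent and 12.0% (10.7 to 13.5) at single-promoter sites. These intervals overlap. In the middle 40% it was 19.6% (14.8 to 25.5) at divergent and 29.1% (27.2 to 31.1) at single-promoter sites. In the strongest 30% 45 of 90 divergent sites had a match (39.9% to 60.1%), and 63.6% (61.1 to 66.1) of single-promoter sites did. In the strongest 10% alone, 19 of 24 divergent sites had a match, or 79.2% (59.5 to 90.8), and 75.6% (71.5 to 79.2) of single-promoter sites did, so no lower share was detectable there. From the weakest 30% to the strongest 30%, head-to-head sites had 4.94% (2.52 to 9.44), 16.4% (10.9 to 24.0) and 48.0% (34.8 to 61.5). Each of these intervals ends below the single-promoter share. Overlapping sites had 13.9% (7.96 to 23.2), 24.1% (16.4 to 34.1) and 52.5% (37.5 to 67.1), and each interval includes the single-promoter share.

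The share was also lower at sites of like base composition, taking as CpG-rich those with GC above 50% and CpG observed over expected above 0.6. At CpG-rich sites the motif share was 15.8% at divergent and 25.4% at single-promoter sites, a difference of -9.56 points (-13.3 to -5.23). At the others it was 27.5% at divergent and 39.1% at single-promoter sites, a difference of -11.5 points (-18.0 to -4.06). Head-to-head sites gave -11.2 points (-15.4 to -5.93) at CpG-rich and -20.3 points (-27.0 to -11.4) at other sites. Overlapping sites gave -6.81 points (-12.6 to 0.602) at CpG-rich and 1.84 points (-9.37 to 14.0) at other sites, and both intervals include 0. Members with a match had a median signal of 104.1 (81.8 to 149.5), and members without one had 33.7 (30.5 to 38.1). The same order held in replicate 1, with 59.3 and 20.7, and in replicate 2, with 46.7 and 16.7. At like motif status the percentile difference between divergent and single-promoter sites was -5.97 (-12.7 to 4.18) with a match and -4.53 (-8.55 to 0.171) without one, and both intervals include 0. For head-to-head sites it was -2.85 (-13.1 to 10.8) with a match and -7.62 (-11.1 to -1.86) without one.

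**Figure D3:**
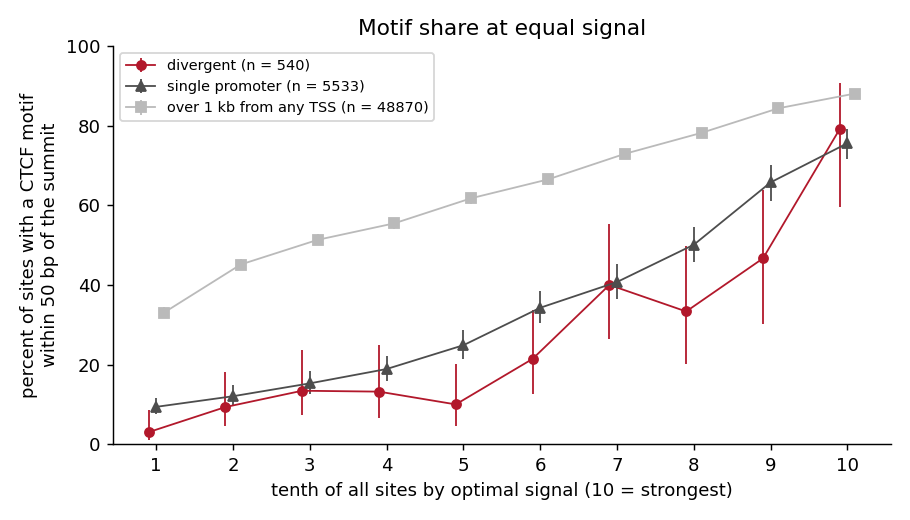
Percent of sites with a CTCF motif within 50 bp of the summit in each 10% of all sites by optimal signal, for divergent sites, single-promoter sites and sites over 1 kb from any protein-coding TSS, with 95% Wilson intervals. Divergent sites run from 3.03% in the weakest 10% to 79.2% in the strongest, under the single-promoter points everywhere but in the strongest 10%, and sites away from promoters are above both throughout.

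Most head-to-head members did not lie in the gap. The summit was between the TSSs in 71 of 334, or 21.3% (17.2 to 26.0), inside the minus-strand gene in 138 and inside the plus-strand gene in 125. The gaps are short. As a mean over the 334 sites, 14.3% of the bases of a pair that could have made a site a member lay in its gap. Per kb of sequence, head-to-head pairs less than 200 bp apart had 0.510 summits in the gap and 0.216 in the flanking parts of the genes, a ratio of 2.36. The ratio was 2.23 for pairs 200 to 399 bp apart and 1.27 for those from 400 bp to under 1000 bp apart. Over all pairs less than 1 kb apart it was 1.95 (1.45 to 2.58), and among the strongest 10000 sites 3.92 (1.46 to 9.58). Among the strongest 10000 sites the share of summits between the TSSs was 41.4% (25.5 to 59.3) of only 29 head-to-head sites. These include sites at pairs over 1 kb apart, where the rule fixes the summit in the gap. With every annotated transcript start in place of 1 per gene the share was 36.1% over all sites.

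Single promoters also had more summits per kb just upstream of the TSS than downstream. Their summits had a density of 0.393 per kb within 200 bp upstream of the TSS and 0.139 per kb in the 800 bp downstream, a ratio of 2.82. At CpG-rich single promoters the densities were 0.667 and 0.222 per kb, a ratio of 3.0. The gap of a head-to-head pair is upstream of both genes, and the 2.36 of pairs less than 200 bp apart was below both ratios. Within 400 bp upstream the ratio was 1.77 at single promoters and 1.98 at the CpG-rich ones, and the 2.23 of pairs 200 to 399 bp apart was above both. The windows were unlike in length. Gaps ran only up to the 200 or 400 bp that were taken whole upstream of single promoters. The flanks of the pairs and the downstream stretches of single promoters differed too, and the stretch downstream was shorter for the 400 bp ratio. These ratios therefore cannot be strictly ranked against each other, and no interval of their differences was computed.

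**Figure D4:**
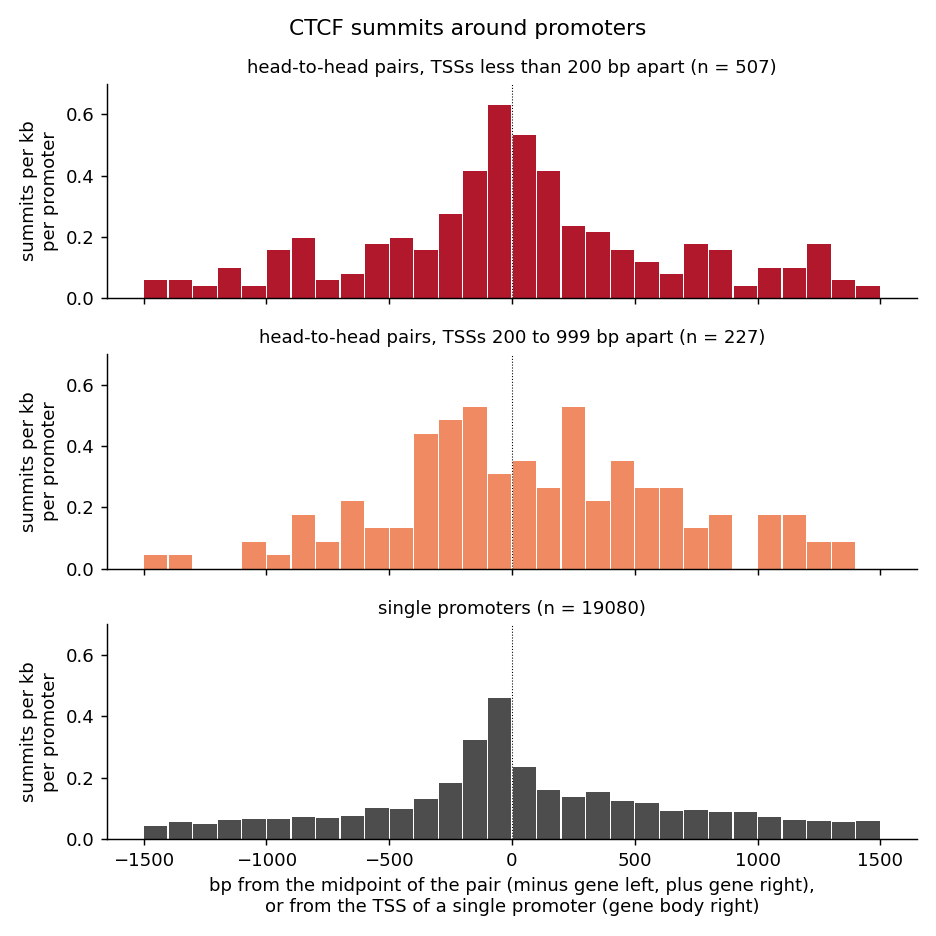
CTCF summits per kb and per promoter in bins of 100 bp, around the midpoint of head-to-head pairs less than 200 bp apart (top, n = 507) and from 200 bp to under 1000 bp apart (middle, n = 227), and around the TSS of single promoters (bottom, n = 19080). The close pairs peak at the midpoint and fall off on both sides, the wider pairs have a broad shape with no single peak, and single promoters peak just upstream of the TSS.

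Members in the gap had a median signal of 47.1 (33.5 to 98.4), those in the minus-strand gene 30.4 (27.0 to 37.6) and those in the plus-strand gene 40.9 (30.5 to 50.7). The percentile difference between the gap and both genes together was 12.4 (-2.15 to 34.8), which includes 0. A motif match was found at 23.9% of members in the gap and at 13.3% of those in either gene, a difference of 10.6 points (1.02 to 22.3). The 9 members at pairs 1000 bp or more apart, all with the summit in the gap by construction of the 1 kb limit, had a median signal of 98.4, and 5 of them had a match. They are counted among the 71 members in the gap and hold 5 of the 17 matches there. The gap values above thus rest in part on them, and the differences without them were not computed. Caskin2/Tsen54, Olfml3/Gm10964 and Gpr108/Trip10 of the strongest list are among these 9.

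By annotation, 68 of 334 head-to-head summits, or 20.4%, lay outside every protein-coding gene, 103 in introns, 103 in UTRs, 39 in coding exons and 21 in exons with neither label. Of overlapping summits 4 of 206 lay outside genes. At single-promoter sites the share outside protein-coding genes was 50.3%. The rule bears on this difference, since both flanks of a head-to-head pair are genes.

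A CTCF site was more common at head-to-head pairs than at single promoters, while among CpG-rich promoters no difference was detectable. Of 734 head-to-head pairs up to 1 kb apart, 231 had a summit within 500 bp of the midpoint, or 31.5% (28.2 to 34.9), against 18.9% of 19080 single promoters, a difference of 12.6 points (9.29 to 16.1). Single promoters here are TSSs with none on the other strand within 2000 bp, and CpG content was taken over the same windows of 500 bp on each side. Among CpG-rich promoters the share was 33.1% at pairs and 31.8% at single promoters, a difference of 1.30 points (-2.47 to 5.27). Among the others it was 23.4% (16.8 to 31.6) at 124 pairs and 10.1% (9.58 to 10.7) at single promoters, a difference of 13.3 points (6.66 to 21.5). With the strongest 10000 sites only, the difference was -0.336 points (-1.35 to 1.16), so no higher share at pairs was detectable there. Overlapping pairs had a site at 155 of 449, or 34.5% (30.3 to 39.0).

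The share with a site was 30.4% (26.5 to 34.5) for head-to-head pairs less than 200 bp apart. It was 38.4% (30.7 to 46.7) at 200 to 399 bp, 27.0% (18.8 to 37.0) from 400 bp to under 1000 bp and 16.0% (10.1 to 24.4) from 1000 bp to under 2000 bp. The first 3 intervals overlap. At the widest spacing the window of 500 bp around the midpoint holds neither TSS, so that share cannot be set against the others.

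**Figure D5:**
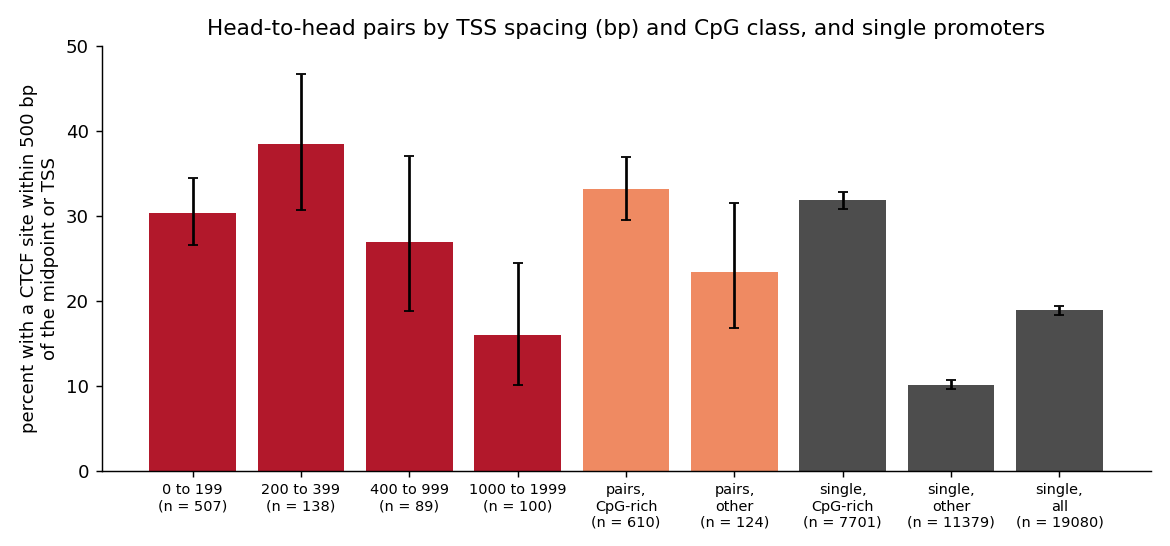
Percent of head-to-head pairs with a CTCF summit within 500 bp of their midpoint, by TSS spacing (red) and by CpG class (orange), and of single promoters with one within 500 bp of the TSS (grey), with 95% Wilson intervals. CpG-rich pairs at 33.1% and CpG-rich single promoters at 31.8% stand at almost the same height, and the other pairs at 23.4% stand above the other single promoters at 10.1%.

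The motif has a direction, and at divergent sites it lay about as often on the strand of the nearer gene as on the other. It lay on the strand of the nearer gene at 47 of 105 divergent sites with a match, or 44.8% (35.6 to 54.3), an interval that includes 50%. At single-promoter sites the share was 60.4% (58.1 to 62.7), a difference of -15.6 points (-25.1 to -5.83). Head-to-head sites had 24 of 52, or 46.2% (33.3 to 59.5), and overlapping sites 23 of 53, or 43.4% (31.0 to 56.7). Of the 12 strongest head-to-head members with a match, 6 had it on the strand of the nearer gene.

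The DNA around divergent summits was richer in CpG. Over 100 bp on each side the median GC content was 62.7% at divergent and 61.2% at single-promoter sites, a difference of 1.49 points (0.995 to 2.61). CpG observed over expected was 0.743 at divergent and 0.647 at single-promoter sites. Of divergent sites 69.1% (65.1 to 72.8), and of single-promoter sites 53.7% (52.4 to 55.0), were CpG-rich. Divergent summits also lay closer to a TSS, at a median of 136 bp (120 to 175) from the nearer one. At single-promoter sites the median was 275 bp (262 to 291), and values at equal distance were not computed. A neighbouring site within 1 kb was about as frequent in both classes, at 24.4% (21.0 to 28.2) of divergent and 22.8% (21.7 to 23.9) of single-promoter sites.

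Letters of other promoter factors were searched within 150 bp of the summit on both strands. As divergent summits lay closer to a TSS, these windows covered unlike parts of the promoters in the 2 classes. CCGGAAG, the core bound by ETS factors, was present at 99 of 540 divergent sites, or 18.3% (15.3 to 21.8), and at 9.51% (8.76 to 10.3) of single-promoter sites, a difference of 8.83 points (5.69 to 12.4). It was present in windows of the same length at 11.6% of all protein-coding TSSs, at 31.2% (25.5 to 37.4) of head-to-head midpoints with a site and at 26.0% (22.4 to 30.1) of those without one, a difference of 5.13 points (-1.78 to 12.4) that includes 0. At divergent sites with a CTCF match they were at 21 of 105, and without one at 17.9%. AAGATGGC, bound by YY1, was present at 4.63% (3.16 to 6.74) of divergent sites, 2.73% (2.33 to 3.19) of single-promoter sites and 3.54% of all TSSs. At head-to-head midpoints it was about as frequent with a site, at 8.23% (5.33 to 12.5), as without one, at 8.55% (6.41 to 11.3). The SP1 letters GGGCGG were at 48.5% of divergent and 46.6% of single-promoter sites, and the NFY letters CCAAT at 31.3% of divergent and 28.3% of single-promoter sites. The NRF1 letters GCGCATGC were at 2.96% of divergent and 3.22% of single-promoter sites, and those of ZNF143, ACTACAAT, at 0.741% of divergent and 0.542% of single-promoter sites. The CREB letters TGACGTCA were at 0.556% of divergent and 1.59% of single-promoter sites, and the E-box CACGTG at 7.22% of divergent and 7.55% of single-promoter sites. The letters TATAAA of the core promoter element were at 4.81% of divergent and 5.96% of single-promoter sites. Over all TSSs these shares ran from 0.758% for ZNF143 to 45.9% for SP1. A match of letters does not show that the factor was bound.

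Among well-known divergent pairs, 9 were head-to-head in this annotation, and 5 of them had a site. These were Trp53/Wrap53 and Mrps12/Sars2, given above, and Brca1/Nbr1, Atm/Npat and Prkdc/Mcm4. The Brca1/Nbr1 site had a signal of 61.7 (replicates 39.1 and 22.1), and its summit lay 799 bp inside Nbr1. Brca1 encodes a mediator of homologous recombination. The Atm/Npat site had 61.2 (replicates 31.0 and 28.7) and lay in the gap of 307 bp, and that of Prkdc/Mcm4 had 17.8 (replicates 8.60 and 7.95) and lay in the gap of 466 bp. Atm and Prkdc encode kinases of the DNA damage response, Npat a regulator of histone genes and Mcm4 a subunit of the replicative helicase. None of these last 3 had a motif match.

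The other 4, Col4a3/Col4a4, Col4a5/Col4a6, Foxm1/Rhno1 and Gart/Son, had no site within 1 kb of both TSSs. The collagen IV pairs encode chains of basement membranes. With the outermost start of each gene as its TSS, another 8 of the well-known pairs, among them Hspd1/Hspe1 and Col4a1/Col4a2, counted as overlapping.

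DNA repair genes often stood in head-to-head pairs, and those pairs had a site about as often as pairs in general. Of all 21755 protein-coding genes 6.75% were in a head-to-head pair up to 1 kb apart, and 39.1% of those genes had a site at the pair. Of 80 DNA repair genes 29 were in such pairs, and 11 of the 29, or 37.9%, had a site. Counting both orders, 14 repair genes, or 17.5%, had a divergent site, beside 4.36% of all protein-coding genes. Among them were Ddb1, a damage recognition factor, with 179.8, and Mbd4, a DNA glycosylase, with 131.6. None of the 47 lung development genes had a divergent site, beside the same 4.36%, and 1 of them was in a head-to-head pair.

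Clustered histone genes often stood in such pairs as well, and almost none of those had a site. Of 67 histone genes 27 were in head-to-head pairs, and 1 of the 27, Hist2h2ab, which is paired with Bola1, had a site, with a signal of 40.5 (replicates 23.2 and 19.4). Of the 16 pairs up to 2000 bp apart with histone genes on both sides, 0 had a site within 1 kb of both TSSs. Hist1h4f/Hist1h1d, 1614 bp apart, had 1 summit between its TSSs that was not within 1 kb of both. Histone genes of the same type are closely similar in sequence, and mappability was not examined, so the presence or absence of peaks at them is uncertain.

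Of genes named for the mitochondrial ribosome, 18 of 78 were in head-to-head pairs and 6 of the 18 had a site, with Mrps12 at 272.2, Mrps18b at 169.9 and Mrpl50 at 49.8. For the cytosolic ribosome 10 of 101 were in pairs and 2 had a site there. In both orders Rps24 had 264.9, Rpl3 123.5 and Rpl35 70.9. Symbols that start with Nduf, taken for respiratory complex I, had 13 of 46 in pairs and 5 with a site. Whether each encodes a subunit of that complex was not checked. Their strongest divergent sites were at Ndufa13 with 188.6, Ndufa3 with 98.4 and Ndufb9 with 24.8. The RNA polymerase symbols had 9 of 28 in pairs and 5 with a site, led by Polr3a with 264.9, Polr1d with 156.2 and Polr2h with 111.6.

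Translation initiation symbols had 6 of 54 genes in pairs, and 5 of the 6 had a site. Eif2s1, a subunit of the initiation factor that delivers the first tRNA, had a signal of 212.8 (replicates 119.7 and 93.4), Eif2b4 145.3 and Eif5b 61.4. DNA replication symbols had 7 of 35 in pairs and 3 with a site, led by Mcm3ap with 110.6, Orc3 with 61.0 and Mcm8 with 47.5. Mcm3ap is taken by its symbol and is an export factor rather than a subunit of the helicase. Proteasome symbols had 8 of 50 in pairs and 2 with a site, Psmc5 with 58.3 and Psmd10 with 17.5. Mitochondrial import had 5 of 25 and 2 with a site, Timm8b with 68.9 and Tomm6 with 20.7. Splicing had 6 of 34 and 1 with a site, and in both orders Prpf4 had 115.7, Prpf40b 31.5 and Sf3a2 8.62. Zinc finger symbols had 20 of 394 and 6 with a site, led by Zfp319 with 188.9, Zfp341 with 110.2 and Zfp142 with 50.8. These counts are too small to rank the lists.

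Of the 4 pairs with 3 sites each, Dcaf6/Mpc2 had signals of 79.1, 52.6 and 22.8, none with a match. Gm10447/Shroom1 had 87.7, 69.1 and 28.2, and the match was at the strongest. Mettl8/Dcaf17 had 97.3, 28.8 and 10.6, again with the match at the strongest, and Dap3/Ash1l had 80.6, 38.3 and 14.8, with none. Near the limit of 1 kb, the farther TSS was 996 bp away at Pced1a/Vps16, with a signal of 36.5, and 995 bp away at Fbxl6/Slc52a2, with 155.8. Just outside were Ears2/Ubfd1 at 1006 bp with 29.0, Fig4/Ak9 at 1018 bp with 135.2 and Atp6v1a/Naa50 at 1025 bp with 73.6.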

How the data were processed

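CTCF ChIP-seq peaks of 2 replicates of embryonic lung were used. The peak signal and the summit offset, a number of bases from the peak start, were used as deposited in narrowPeak lists on mm10; per the deposited README, the replicate lists shared 1 control file, and the IDR lists were made from the pooled and replicate ones. The sources used here name neither the software nor the IDR threshold. Ranks were taken within a list, and a replicate value is that of the nearest summit within 100 bp. Of 54953 optimal peaks, 54943 were on the chromosomes used.

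Gene starts were the outermost starts of GENCODE M21, and sequence was GRCm38. The motif matrix, 20 bases wide, was learned in 15 rounds on odd-numbered autosomes, from their 3000 strongest sites, of which 14 were divergent and 262 single-promoter. Shares have Wilson and differences Newcombe intervals, and medians order-statistic intervals. Scans and geometry were tested on simulated data. Python 3.11.15, numpy 2.4.6, pandas 2.3.3 and scipy 1.17.1 were used. The members and gene lists were chosen with earlier results of these data known. Genes were named by a fixed rule: the 15 strongest and 5 weakest head-to-head members, well-known pairs, the 3 strongest genes of each list, pairs with 3 sites, and members near the limit. A few genes that this rule names are not reported here. No test between conditions exists, since there is 1 group. Alternatives covered the peak list, either replicate alone, the TSS set and limit, the motif window and matrix, and the GC window.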

Additional observations from a re-analysis of the deposited data

How the results depend on the processing

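Of 59 alternative settings over 8 results, 53 gave values within the interval of the reported one (for the count of members, within 1.5 times). For 1 replicate alone, its list was cut to the 54953 strongest peaks, the size of the optimal list. The count of members is therefore not independent of that cut. It gave 532 to 542 members, a percentile difference of -7.23 to -6.99 and a motif difference of -11.7 to -11.2 points. The gap density ratio was 1.85 to 1.94, and 21.0% to 21.4% of head-to-head summits lay in the gap. The site share difference was 11.97 to 11.99 points. Of motifs, 42.9% to 43.3% lay on the strand of the nearer gene, and the GC difference was 0.995 to 1.99 points. With the strongest 10000 sites the share in the gap was 41.4% (25.5 to 59.3) of 29 head-to-head sites, and the density ratio was 3.92. The site share difference was then -0.336 points, a change of sign with an interval that includes 0. With all transcript starts the share in the gap was 36.1%. With head-to-head order only there were 334 members, and the motif difference was -16.1 points. The cause was not tested. No paired analysis was possible because the replicates form 1 group. Unknown depth limits the weak end, where 6 members had no peak within 100 bp in either replicate list.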
